A study of Mus musculus with 60 samples.

Results

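The comparison is between fetal brains of mice carrying the human paraoxonase 1 transgene of the Q192 form (tgHuPON1Q192, Q-tg) and fetal brains of wild-type mice (WT), over 3 doses of chlorpyrifos oxon (CPO), after the sample labels had been reassigned. It takes 30 of the series' 60 arrays, 15 of Q-tg and 15 of WT, with 5 of each genotype at a dose of 0, 5 at 0.75 and 5 at 0.85 mg CPO per kg of the dam's weight daily (mg/kg/d). All mice were of the B6.129 strain background. Dams were dosed for 12 days, on gestational days 6 to 17, and fetal brains were taken on gestational day 18. RNA of the brains of 1 dam's fetuses was pooled on 1 Affymetrix Mouse Gene 1.0 ST array, so the litter is the replicate, and dams with deviating brain acetylcholinesterase activity had been left out before dams were drawn at random. The labels do not say which promoter drives the transgene or whether Q-tg mice keep the mouse Pon1 gene.

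The labels were reassigned because they look displaced against the arrays, and the order used here is inferred, not recorded. The 60 samples were numbered by group label in text order and then by replicate, the numbers were sorted as text with a trailing _ sign, as a computer sorts file names, and the label of each number in that sorted order was given to the value column at the same position. The displacement was inferred from measured values, above all from Pon1, so the Pon1 pattern is a description and supports nothing. Throughout, Q-tg, R-tg (the R192 form of the transgene), KO (Pon1 knockout) and WT mean the reassigned labels unless deposited labels are named. The KO arrays were at doses of 0, 0.5 and 0.75 mg/kg/d, so KO means given below cover other doses than those of Q-tg and WT. The reassigned Q-tg arrays carried the deposited labels Q-tg (6), R-tg (5), KO (2) and WT (2). The reassigned WT arrays carried the deposited labels WT (4), R-tg (7), KO (3) and Q-tg (1). Of the 30 arrays, 10 kept their genotype, 17 kept their dose and 9 kept both. Under the deposited labels the same comparison gave 0 transcript clusters past the threshold (limma, smallest adjusted p = 0.551, 1901 at an unadjusted p under 0.05). Every result below therefore rests on the inferred order.

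Paraoxonase 1 is an enzyme made mainly by the liver and carried in blood on high-density lipoprotein. It hydrolyses chlorpyrifos oxon, the metabolite of the insecticide chlorpyrifos that inhibits acetylcholinesterase, before the oxon reaches nervous tissue. Of its common human forms, Q192 hydrolyses the oxon less efficiently than R192. The comparison asks how far the brain transcript levels of Q-tg fetuses differ from those of WT fetuses at the same doses.

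Under the reassigned labels Pon1 was high in every Q-tg and WT array. Its log2 signal ran from 9.83 to 10.05 in Q-tg (median 9.91) and from 9.72 to 10.14 in WT (median 10.02), while the 15 KO arrays ran from 4.84 to 5.67. Asb4, a chromosome 6 neighbour of Pon1, was higher in the KO arrays, which follows from the choice of those arrays and adds no support to the order. It had means of 6.64 ± 0.13 in Q-tg and 6.61 ± 0.10 in WT and 7.83 ± 0.12 in KO (SD, n = 15 each). Pon1 averaged 9.93 ± 0.07 in Q-tg and 9.996 ± 0.12 in WT (SD, n = 15 each), and its difference is given with no test since Pon1 chose the order. Pon3 differed by -0.06 and Pon2 by -0.04, and neither passed. Whether the probes for the mouse gene also take up the human transcript was not tested.

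**Figure D1:**
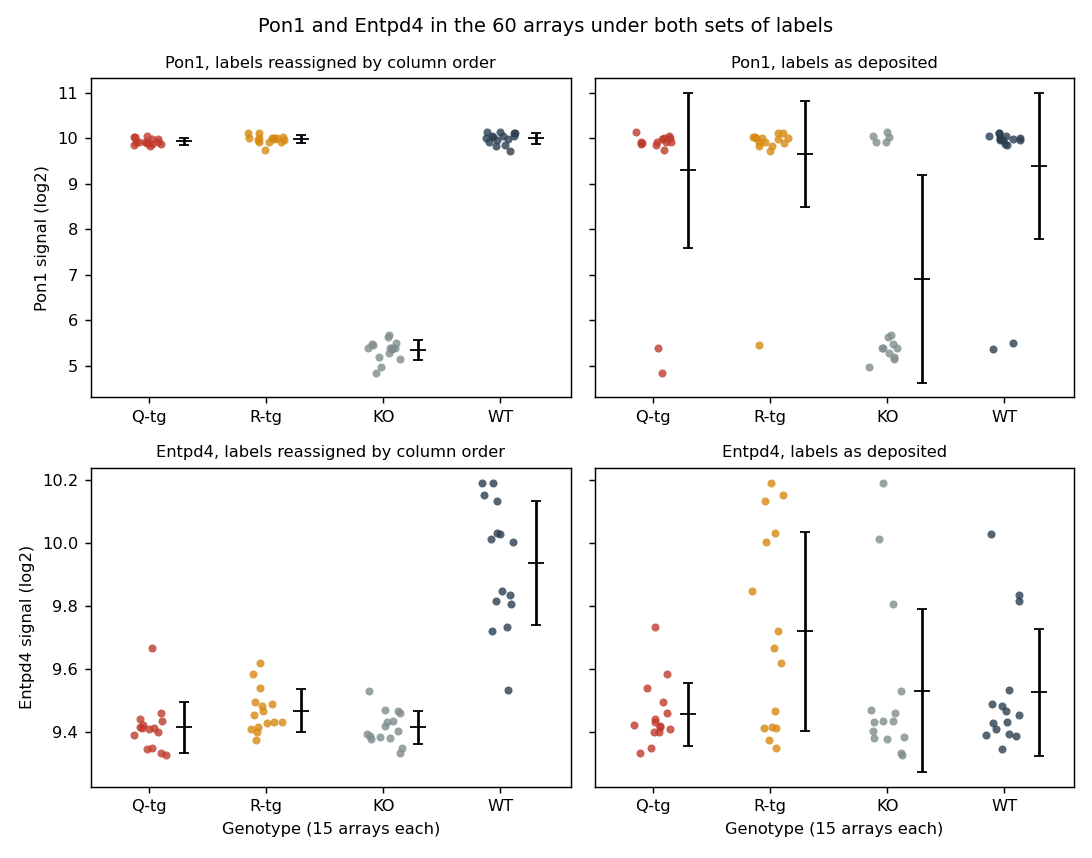
Log2 signal of Pon1 (top) and Entpd4 (bottom) in the 60 arrays, grouped by genotype under the reassigned labels (left) and under the deposited labels (right). Each point is 1 array, and the bar gives the mean and SD of 15 arrays. Under the reassigned labels the low Pon1 arrays are the 15 of KO, and the Entpd4 means are 9.42 in Q-tg and 9.94 in WT. Under the deposited labels the Entpd4 means are 9.46 in Q-tg and 9.53 in WT.

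Few transcripts differed between the genotypes past the threshold. Any pair of the 30 arrays correlated between 0.9900 and 0.9980 over the 21789 transcript clusters (probe groups, mostly 1 for each gene) that carry exactly 1 gene symbol. With dose as a factor, 46 of these, or 0.211%, passed an adjusted p of 0.05 between Q-tg and WT in limma, and they name 42 genes. Of the 46, 16 were higher in Q-tg (0.0734% of those tested) and 30 were lower (0.138%). The 30 name 26 genes, since they hold several clusters of Gm10590 with identical values and both clusters of Kmt2d. At an unadjusted p under 0.05 there were 2323, or 10.7%. The differences that passed were small, between 0.10 and 0.53 on the log2 scale in size. In none of the clusters tested were the 15 Q-tg arrays wholly apart from the 15 WT arrays. Of all clusters, 56.6% were higher in Q-tg and the median was 0.01.

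Leaving out single arrays moved the count of 46 between 23 (without the Q-tg array numbered 3 at dose 0, and likewise at 0.75 mg/kg/d) and 120 (without the Q-tg array numbered 3 at 0.85 mg/kg/d). Of 39 called genes described below, 22 were called in all 30 such fits. The remaining 17, each lost in at least 1 of them, were Cp, Ctla2b, Gabra2, H2bc14, Kitl, Lipt1, Scnm1, Slc6a6, Spidr, Strbp, Tmem145, Vwf, Insr, Itih2, Lrp1, Aldh8a1 and Shank1.

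**Figure D2:**
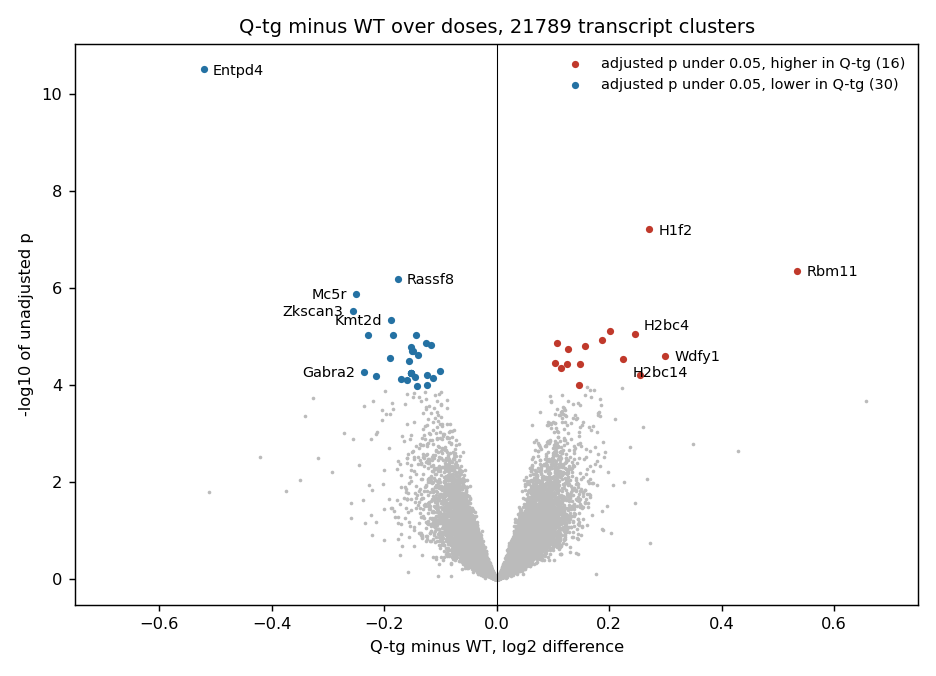
Log2 difference of Q-tg minus WT over doses (horizontal) against the -log10 of its unadjusted p (vertical) for the 21789 transcript clusters, each a point. Coloured points passed an adjusted p of 0.05, 16 higher and 30 lower in Q-tg. Entpd4, at -0.52, stands at the top left and Rbm11, at 0.53, is the called cluster farthest to the right.

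Entpd4 had the smallest p. It encodes a nucleoside diphosphatase of the Golgi and lysosome. At dose 0 its log2 signal was 9.33, 9.44, 9.40, 9.34 and 9.46 in Q-tg, against 9.85, 10.19, 10.15, 10.03 and 10.004 in WT. At 0.75 mg/kg/d it was 9.44, 9.41, 9.42, 9.42 and 9.35 in Q-tg, against 10.01, 9.73, 10.13, 9.72 and 9.54 in WT. At 0.85 mg/kg/d it was 9.41, 9.41, 9.67, 9.39 and 9.35 in Q-tg, against 10.19, 9.82, 9.84, 10.03 and 9.81 in WT. The groups did not overlap at any dose. Over doses, the highest Q-tg array (9.67, at 0.85 mg/kg/d) lay above the lowest WT array (9.54, at 0.75 mg/kg/d), and the WT arrays were spread more widely than the Q-tg arrays. Entpd4 fell by 0.52 ± 0.05 (SE) on the log2 scale in Q-tg, a level 0.697 times that of WT (limma, adjusted p = 6.7e-07). It was also the sole gene to pass at dose 0 by itself, where its difference was -0.65 (adjusted p = 0.000699). That is 0.00459% of those tested, and 901 clusters, or 4.14%, had an unadjusted p under 0.05 there. R-tg arrays averaged 9.47 and KO arrays 9.42, near the Q-tg level. Entpd4 stands on a list of genes known to differ between laboratory strains, which was drawn up with earlier results of these data known. The RefSeq gene table also holds Entpd4b on the same chromosome, and the probes may not tell these genes apart.

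Entpd4 also allows a look at the arrays whose genotype label is the same before and after reassignment. In the 6 such Q-tg arrays it ran from 9.34 to 9.46, and in the 4 such WT arrays from 9.54 to 10.03, without overlap. In the arrays whose genotype label changed, it averaged 9.42 ± 0.10 in Q-tg (SD, n = 9) and 9.98 ± 0.18 in WT (SD, n = 11). These values describe arrays that were among the 30 in which Entpd4 had the smallest p, so they are no independent support for the order. A fit on the 10 arrays of unchanged genotype called nothing, with 1226 clusters at an unadjusted p under 0.05. In that fit genotype and dose overlap little, since both genotypes are present at 0.75 mg/kg/d alone. With dose as a term, which leaves the estimate to 3 Q-tg arrays and 1 WT array, none of the 46 clusters above passed.

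Rbm11, an RNA-binding protein that regulates splicing, rose the most in Q-tg among the called genes. At dose 0 it had log2 signals of 8.39, 7.72, 8.24, 7.93 and 7.79 in Q-tg, against 7.68, 7.43, 7.34, 7.54 and 7.26 in WT. At 0.75 mg/kg/d it had 8.32, 7.99, 7.75, 7.82 and 8.15 in Q-tg, against 7.71, 7.27, 7.55, 7.67 and 7.23 in WT. At 0.85 mg/kg/d it had 8.13, 7.56, 8.27, 7.997 and 8.02 in Q-tg, against 7.26, 7.38, 8.05, 7.35 and 7.34 in WT. The groups were apart at the lower doses, and at 0.85 mg/kg/d 1 WT array reached the Q-tg range. The difference was 0.53 ± 0.08 (SE), or 1.45-fold (limma, adjusted p = 0.00314). R-tg arrays averaged 7.82 and KO arrays 7.36.

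Wdfy1, an endosomal adaptor protein that is also on the list of strain-variable genes, was steady in Q-tg and scattered in WT. It ran from 8.51 to 8.84 in Q-tg (median 8.64) and from 7.94 to 8.72 in WT (median 8.38). The difference was 0.30 ± 0.06 (SE; adjusted p = 0.0234). R-tg and KO averaged 8.66 and 8.68. Zkscan3, a zinc finger protein that represses autophagy genes, had the same kind of spread in the other direction. It ran from 8.64 to 8.84 in Q-tg (median 8.79) and from 8.77 to 9.30 in WT (median 9.05), a difference of -0.26 ± 0.04 (SE; adjusted p = 0.0104), and R-tg averaged 8.77. Gabra2, a subunit of the GABA-A receptor and the remaining called gene of the strain-variable list, fell by 0.24 ± 0.05 (SE; adjusted p = 0.0335), with 9.45 to 9.97 in Q-tg and 9.49 to 10.05 in WT, while KO averaged 10.31. Of the 31 measured genes of that list, 13 were higher and 18 lower, and 1 passed as higher and 2 as lower. Among all 19938 genes, 16 passed as higher and 24 as lower. Here and in all list counts a gene is represented by its brightest cluster, which gives 24 lower genes in place of 26. Mid1, on the same list, differed by -0.29 with an SD of 0.14 in Q-tg and 0.39 in WT, and did not pass.

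**Figure D3:**
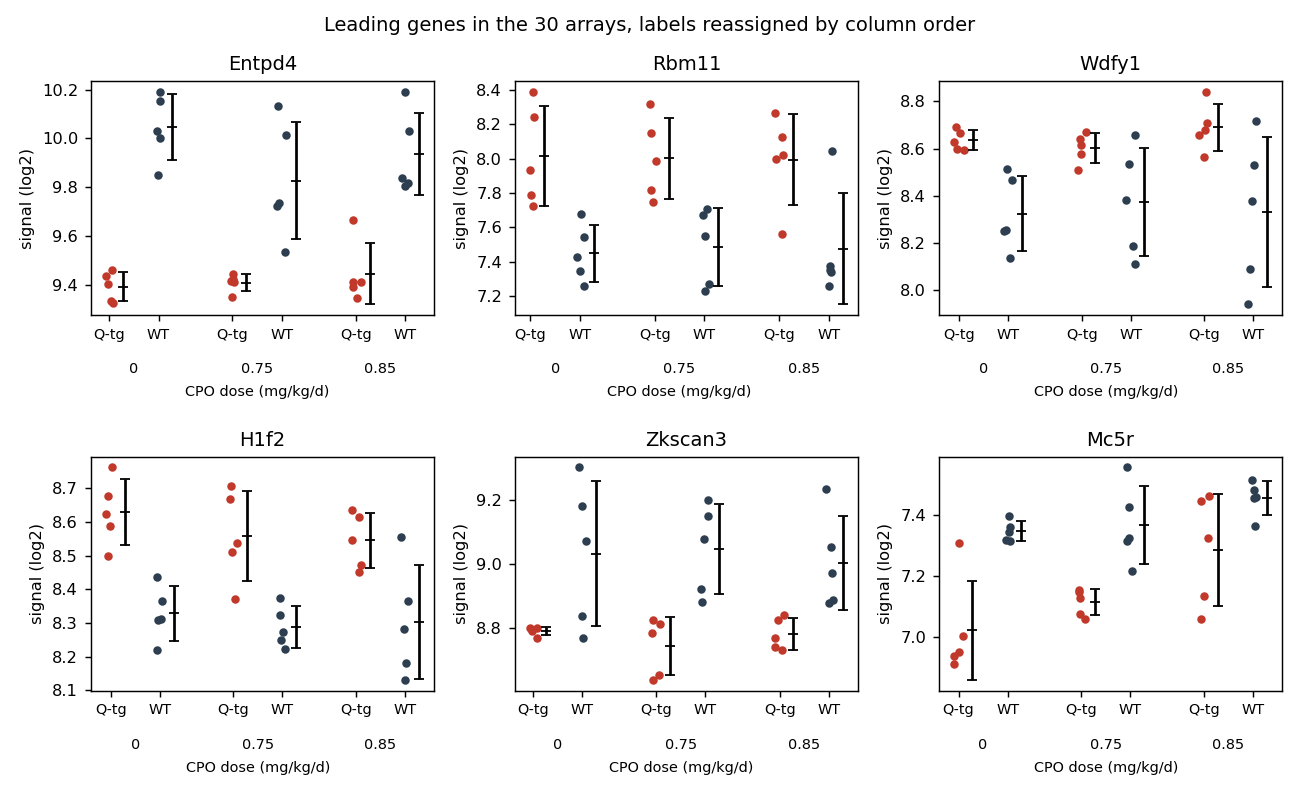
Log2 signal of 6 genes in the 30 arrays, by genotype (Q-tg red, WT dark) and CPO dose, under the reassigned labels. Each point is 1 array, and the bar gives the mean and SD of 5 arrays. Entpd4 is lower in Q-tg than in WT without overlap at any dose, and the WT arrays of Wdfy1 and Zkscan3 are more spread than the Q-tg arrays.

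Histone genes of the replication-dependent clusters were the group with the highest median among the gene lists. These genes are transcribed in S phase, and most of their mRNAs end in a stem-loop instead of a poly(A) tail. H1f2, a linker histone, had the second smallest p of all clusters. It had log2 signals of 8.37 to 8.76 in Q-tg (median 8.59) and 8.13 to 8.56 in WT (median 8.31), and the highest WT array exceeded several Q-tg arrays. The difference was 0.27 ± 0.04 (SE; limma, adjusted p = 0.000662). H2bc4 and H2bc14, a pair of H2B genes, rose by 0.25 and 0.22 (adjusted p = 0.0170 and 0.0251). The H2bc4 difference was 0.40 at dose 0, 0.24 at 0.75 and 0.10 at 0.85 mg/kg/d, and none of these passed separately. Its test between doses did not pass either (limma, unadjusted p = 0.0266). H2bc4 ran from 8.57 to 9.11 in Q-tg and from 8.37 to 8.76 in WT, and H2bc14 from 9.61 to 9.94 in Q-tg and from 9.39 to 9.88 in WT. For H1f2, H2bc4 and H2bc14, means were 8.46, 8.76 and 9.73 in R-tg and 8.76, 9.07 and 9.80 in KO. Those of Q-tg were 8.58, 8.80 and 9.83 and those of WT 8.31, 8.56 and 9.60. A mean above that of WT was therefore not particular to Q-tg, and the R-tg and KO means were not tested. Of the 27 measured cluster histone genes, 24 were higher in Q-tg, 3 passed and 18 were higher at an unadjusted p under 0.05, with a list median of 0.13. Over all 19938 genes, 11371 were higher, 16 passed as higher, 1151 were higher at an unadjusted p under 0.05 and the median was 0.01. The histone list was made after its members had been seen among the calls, so its counts are a description. The 3 calls became 6 after median centring, 7 after renewed quantile normalization and 10 with all 60 arrays in the model. They became 11 with array weights, 12 with the lower quartile of each array as covariate and 1 with the Hoxa5 level as covariate. In exposed arrays there were 0 calls, and the list median was 0.12. With the deposited labels there were also 0 (list median 0.02), as in arrays of unchanged genotype (0.12) and of changed genotype (0.11). Without dim clusters (mean signal under 6.54) 18 of the 27 genes remained, all 18 were higher and 8 passed. Cluster histone genes have near-identical coding sequences, and probes may be shared between them. H2aw, a further H2A gene outside this list, rose by 0.11. Within the same chromosome 13 region, H2bc4 and H1f2 had 3 measured genes between them, and H2bc14 and Zkscan3 had 12.

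The promoters of the called histone genes are shown because these genes were higher together. The 120 bases before the start of H1f2 (GRCm38.p6, chr13:23738687-23738806, plus strand) and of H2bc14 (GRCm38.p6, chr13:21721924-21722043, plus strand), from RefSeq, are given with CCAAT on either strand (printed as CCAAT or ATTGG) and the octamer ATTTGCAT in capitals, motifs picked after these sequences had been read. H2bc4 is named only.

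H1f2: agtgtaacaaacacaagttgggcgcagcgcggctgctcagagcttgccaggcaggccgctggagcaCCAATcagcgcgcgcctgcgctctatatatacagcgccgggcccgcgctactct

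H2bc14: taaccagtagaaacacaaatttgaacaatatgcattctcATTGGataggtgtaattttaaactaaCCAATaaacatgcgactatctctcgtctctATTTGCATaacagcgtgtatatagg

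The H1f2 window held 1 CCAAT match, and the H2bc14 window held 2 and an octamer. A CCAAT match was present in 17 of 23 histone promoters of that length (73.9%) and in 22.1% of the 27025 promoters of the RefSeq table. The octamer, a sequence known from H2B promoters, was present in 4 of the 23 histone promoters, all 4 of them among 7 H2B genes, and in 0.818% of all promoters. The motifs do not overlap each other, and a match is a description of letters, not of a bound site. The motif shares cover all 23 histone promoters, called or not, and do not bear on the difference between the genotypes. Nfya, a subunit of the factor that binds CCAAT, was among the called genes and rose by 0.16 ± 0.03 (SE; adjusted p = 0.0195), with 9.72 to 9.94 in Q-tg and 9.54 to 9.84 in WT. A link between Nfya and the histone genes was not tested.

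**Figure D4:**
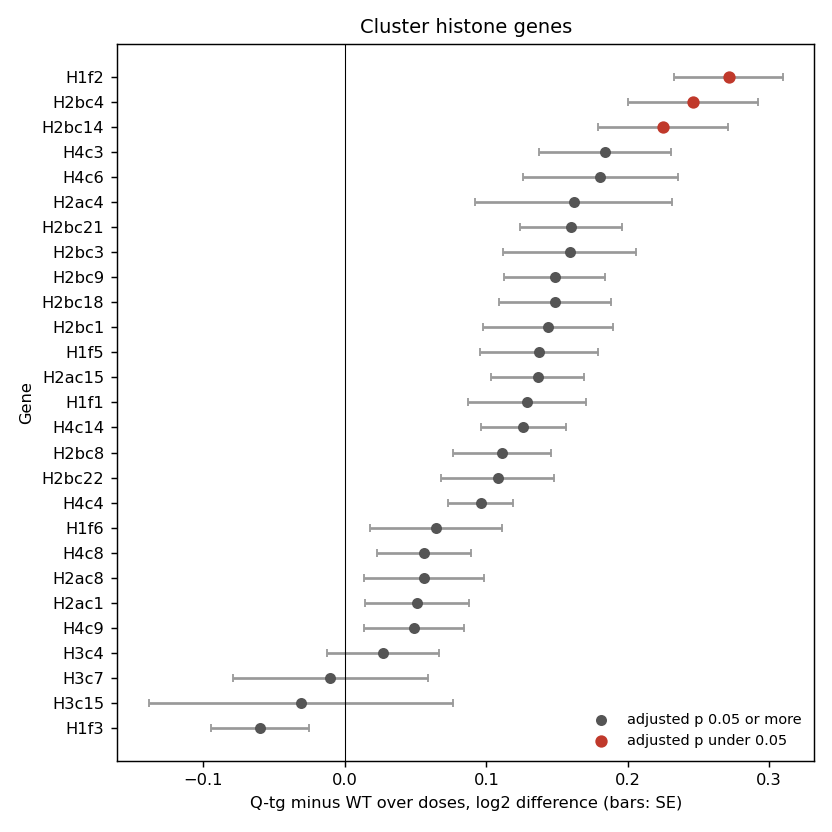
Log2 difference of Q-tg minus WT over doses (horizontal, bars 1 SE) for the 27 measured cluster histone genes (vertical). Red points passed an adjusted p of 0.05. H1f2, H2bc4 and H2bc14 passed at 0.27, 0.25 and 0.22, and 24 of the 27 lie above 0.

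The other genes that rose in Q-tg have varied roles. Cnn2, an actin-binding calponin, rose by 0.20, and Cox20, an assembly factor of cytochrome c oxidase, by 0.19. Pik3cd, a catalytic subunit of phosphoinositide 3-kinase, rose by 0.13, and Kitl, the ligand of the Kit receptor, by 0.10. Lipt1, a lipoyltransferase of mitochondria, rose by 0.15, Spidr, a scaffold of DNA repair, by 0.12, and Scnm1, a splicing factor, by 0.11. Ctla2b rose by 0.25 from a dim signal of 5.78 in Q-tg and 5.53 in WT, below the level of 6.54 under which 95% of olfactory receptor clusters lie. Their adjusted p-values lay between 0.0170 and 0.0357 (limma).

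Genes of neuronal excitability and the synapse were among those that fell. Kcna2 and Kcnc1, voltage-gated potassium channels, fell by 0.18 and 0.15. Shank1, a scaffold of the postsynaptic density, fell by 0.15 (adjusted p = 0.0370). It averaged 9.34 ± 0.11 in Q-tg and 9.49 ± 0.07 in WT (SD, n = 15 each). Of 25 measured genes of a list of synapse genes, Shank1 was the sole one that passed, 23 were lower, 8 of them at an unadjusted p under 0.05, and the list median was -0.04. Over all genes 8567 of 19938 were lower and 940 were so at an unadjusted p under 0.05, and among clusters 4.9% were. Bsn, a presynaptic scaffold, differed by -0.13, and the glutamate receptor subunits Grin2b and Gria1 by -0.09 and -0.08, without passing.

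Mc5r, a melanocortin receptor, fell by 0.25 ± 0.04 (SE; adjusted p = 0.00562). It had log2 signals of 6.91 to 7.46 in Q-tg (median 7.13) and 7.22 to 7.56 in WT (median 7.36). The difference was -0.33 without CPO, -0.26 under 0.75 mg/kg/d and -0.17 under the higher dose, and none of these passed separately. Rassf8, a RAS-association protein, and Itpr2, a calcium release channel of the endoplasmic reticulum, fell by 0.18 and 0.14. They lie near each other on chromosome 6 with 2 measured genes between them, which differed by -0.03 (Bhlhe41) and 0.01 (Sspn). A second transcript cluster of Rassf8 differed by 0.01, so its clusters disagree. Kmt2d, a histone H3 lysine methyltransferase, fell in both of its clusters, by 0.19 and 0.17.

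Further genes that fell take part in the extracellular matrix, vessels, transport and metabolism. Fn1, the matrix protein fibronectin, fell by 0.23 ± 0.04 (SE; adjusted p = 0.0170), with 9.63 to 10.18 in Q-tg and 10.04 to 10.34 in WT. Vwf, the von Willebrand factor of endothelium, fell by 0.19. The transporters Slc13a4 (sulfate) and Slc6a6 (taurine) fell by 0.15 and 0.14, Pfkp, a phosphofructokinase, by 0.15, Srgap3, a regulator of neurite branching, by 0.13, and Cds2, an enzyme of phosphoinositide synthesis, by 0.12. Several genes are named after their values were seen: Cp (ceruloplasmin) fell by 0.16, Insr (the insulin receptor) by 0.11, Strbp by 0.10, and Tmem145 and Itih2 by 0.12 each. Aldh8a1 fell by 0.16 from a dim signal. The genes that fell were longer than those that rose, with a median genomic span of 5700 bases for the 16 that rose, 52818 bases for 25 that fell and 17737.5 bases for all tested genes with a span. The part of gene length in these calls was not tested.

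Cholinesterases and the other enzymes that organophosphates bind showed no call. Ache, the acetylcholinesterase that CPO inhibits, averaged 8.83 ± 0.09 in Q-tg and 8.92 ± 0.12 in WT (SD, n = 15 each), a difference of -0.09 (adjusted p = 0.387). Bche differed by -0.05. Of 7 measured genes of a list of cholinesterases, their anchors and related genes, none passed. The largest differences besides Ache were 0.10 for Colq, the collagen tail of acetylcholinesterase, -0.09 for Lynx1 and 0.06 for Ly6h. Lynx1 and Ly6h are neither cholinesterases nor anchors. None of 31 measured serine hydrolases passed (list median 0.01), with 0.15 for Ces1c, 0.12 for Ces1g (both dim) and -0.08 for both Dpp4 and Ppt1. At an unadjusted p under 0.05 (limma), 2 of the 31 were higher and 6 were lower. Of the 7 genes above, 2 were lower at that level and none was higher. Over all 19938 genes, 16 passed as higher and 24 as lower, and 1151 were higher and 940 lower unadjusted. At that share, no call in lists of this size is no result about their genes. None of 26 measured neighbours of Pon1 on chromosome 6 passed, where Col1a2 differed by -0.09, Sem1 by 0.07, Ica1 by -0.05 and Pdk4 by -0.04. Of 22 measured genes of high-density lipoprotein and other lipoproteins, the particles that carry PON1, Lrp1, a lipoprotein receptor, fell by 0.14 (adjusted p = 0.0499). Apoe differed by -0.13, Pla2g7 by -0.10 and Abca1, the cholesterol exporter, by -0.09, without passing. At an unadjusted p under 0.05 (limma), 1 of the 22 was higher and 5 were lower. Of the 26 neighbours of Pon1, 1 was lower at that level.

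No listed marker of hindbrain, cortical neurons, astrocytes or brain vessels passed, and their values are given for the lists as a whole. Over all 19938 genes 16 passed as higher and 24 as lower. At that share, no call in lists of this size is no result about their genes. The pools carried brain transcripts at high levels in both, such as the neuronal factor Neurod2 at 10.12 ± 0.06 in Q-tg and 10.03 ± 0.07 in WT (SD, n = 15 each). Of 20 measured hindbrain and spinal cord genes, 15 were lower in Q-tg, none passed, 5 were lower at an unadjusted p under 0.05 and the median was -0.07. Of these 20 genes 10 were dim, and without dim clusters 8 of 10 were lower, with a median of -0.12. Over all 19938 genes 8567 were lower, 940 of them at an unadjusted p under 0.05, and the median was 0.01. Hoxa5, a transcription factor of the caudal neural tube, ran from 5.96 to 7.84 in Q-tg (median 6.83) and from 6.01 to 8.23 in WT (median 7.68), a difference of -0.51 (adjusted p = 0.334). Slc6a5, the glycine transporter of hindbrain and cord neurons, differed by -0.37, Hoxb5 by -0.35 and Hoxb3 by -0.19. With the Hoxa5 level of each array as a covariate, the count of 46 became 5, namely Entpd4, Rbm11, H1f2, Rassf8 and Gabra2. In that fit the median of cluster histone genes was 0.12 (main fit 0.13), with 25 of 27 higher. Synapse genes had -0.05 (main fit -0.04), with 22 of 25 lower, and cell cycle genes 0.05 (main fit 0.06), with 22 of 23 higher. Other medians shrank more, to -0.01 for astrocyte and radial glia genes (main fit -0.04) and 0.01 for cortical projection neuron genes (main fit 0.04). Lipoprotein genes had -0.02 (main fit -0.03) and brain vascular genes -0.02 in both. The median of the hindbrain list, which holds Hoxa5 itself, was 0.02 with the covariate. In bulk pools, fewer cells of a type and less RNA per cell cannot be told apart.

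Of 16 cortical projection neuron genes, 15 were higher and none passed (median 0.04), with 0.12 for Fezf2, 0.09 for Eomes, 0.09 for Neurod2 and 0.07 for Tle4. At an unadjusted p under 0.05 (limma), 3 of the 16 were higher and 0 were lower. With the Hoxa5 covariate 10 of the 16 were higher and the median was 0.01. Of 23 cell cycle genes of progenitors, 22 were higher and none passed, 12 of them were higher at an unadjusted p under 0.05 (5.76% of all clusters were), and the median was 0.06. The mitotic kinase Plk1 differed by 0.11, Rrm2 by 0.11, the replication helicase subunit Mcm6 by 0.09 and Ccnb2 by 0.09. Of 19 astrocyte and radial glia genes, 13 were lower and none passed (median -0.04). At an unadjusted p under 0.05 (limma), 2 of the 19 were higher and 5 were lower. Aqp4, the water channel of astrocytes, differed by -0.20, Agt by -0.15 and Aldoc by -0.10, and Nes, the intermediate filament of progenitors, by 0.13. Of 23 brain vascular genes 14 were lower and none passed, with -0.14 for Abcb1a, -0.13 for Cdh5, -0.11 for Slco1a4 and -0.11 for Acta2. At an unadjusted p under 0.05 (limma), 0 of these 23 were higher and 5 were lower. Over all 19938 genes, 1151 were higher and 940 lower at that level.

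**Figure D5:**
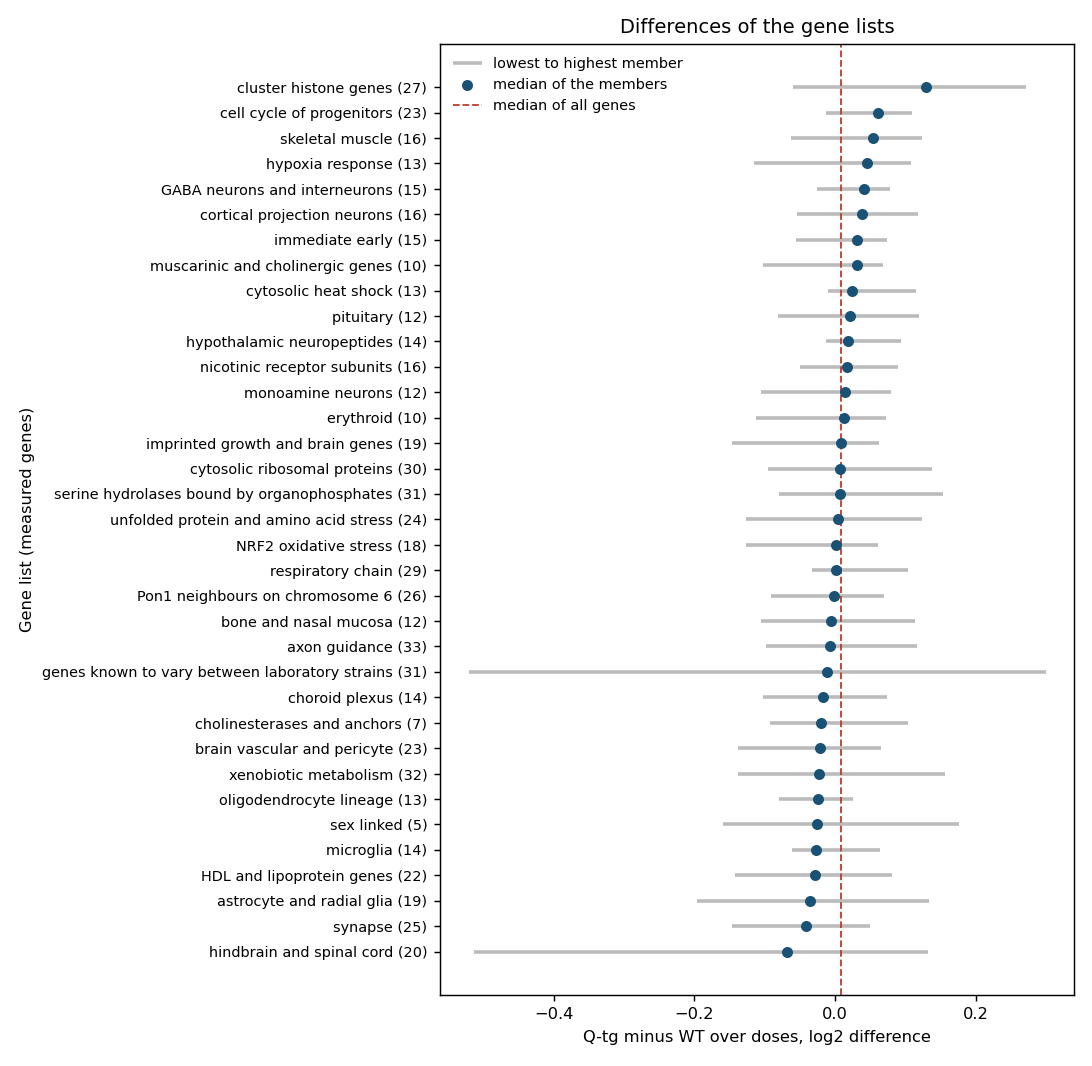
Log2 difference of Q-tg minus WT over doses for the gene lists (vertical, with the number of measured genes). The point is the median of a list's members, the bar runs from its lowest to its highest member, and the dashed line is the median of all genes. Cluster histone genes have the highest median (0.13) and hindbrain and spinal cord genes the lowest (-0.07).

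The difference between the genotypes was not shown to depend on the CPO dose. No cluster passed the test of a difference between doses (limma, smallest adjusted p = 1.00), and 460, or 2.11%, had an unadjusted p under 0.05. At 0.75 mg/kg/d no cluster passed, with 1067 (4.9%) at an unadjusted p under 0.05. The smallest p-values belonged to Zc3h6 (0.33), Entpd4 (-0.42) and Cds2 (-0.18), each with an adjusted p of 0.412. At 0.85 mg/kg/d no cluster passed, with 1346 (6.18%) at an unadjusted p under 0.05, and the smallest p-values belonged to Entpd4 (-0.49, adjusted p = 0.104), Foxm1, a transcription factor of mitosis (0.27, adjusted p = 0.265), and Slamf1 (0.33, adjusted p = 0.300). In the test between doses the smallest p-values were those of Ifi205, Slamf1 and Prl5a1, whose differences in order of dose were -0.32, -0.02 and 0.21 for Ifi205, -0.02, -0.05 and 0.33 for Slamf1, and -0.20, 0.20 and 0.03 for Prl5a1. All these genes were dim, with highest group means of 4.03 for Ifi205, 4.48 for Slamf1 and 5.31 for Prl5a1. Among the exposed arrays alone, Entpd4 was the sole cluster called (limma, adjusted p = 0.0113), with 1903 at an unadjusted p under 0.05.

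The other genotypes were placed between or beside Q-tg and WT. The R-tg mean was nearer to Q-tg than to WT for 13 of the 16 clusters that rose and for 3 of the 30 that fell. The KO mean was nearer to Q-tg for 15 of the 16 and for 16 of the 30. The 30 count the identical values of Gm10590 several times, with R-tg nearer to WT and KO nearer to Q-tg. These are positions of means, and no test was made of them. The KO means also cover other doses (0, 0.5 and 0.75 mg/kg/d), so genotype and dose are mixed in them. The sex makeup of the pools was alike, with a low Xist in 1 Q-tg array and 2 WT arrays and a low Eif2s3y in 2 Q-tg arrays and 2 WT arrays. Growth hormone (Gh) signal of 8 or more, which marks pituitary in the pool, was present in 4 Q-tg and 5 WT arrays. No batch is given for the arrays, so a batch that follows genotype and the genotype itself cannot be told apart.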

How the data were processed

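The deposited log2 values were made by the authors with RMA (oligo 1.22.0, R 2.15.1), per the submitters' processing notes and the file headers, and were used with no further normalization. Of 28858 transcript clusters, 21789 carry exactly 1 gene symbol (19938 genes) and were tested. Array medians ran from 7.38 to 7.47, and the number of arrays limits the precision. Labels were reassigned as described, and no source states that order. limma 3.58.1 in R 4.3.3 fitted dose and genotype to 30 arrays. A model of 6 group means gave single doses and the test between doses. Tests were 2-sided, with Benjamini-Hochberg adjustment over all clusters. Single genes without a quoted p are from this fit.

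The order, the members and the gene lists were chosen with earlier results of these data known. Named genes were the paraoxonases, Ache and Bche, up to 15 genes of smallest p in each direction (predicted and small RNA genes gave way), up to 5 genes that passed, or else the 3 of smallest p, at single doses, and the 4 list members of largest difference in each described list. Simulated data with the spread of these arrays gave recovery of 20%, 40%, 86% and 100% for differences of 0.1, 0.15, 0.25 and 0.5. Each size was given to 50 of 21789 clusters, and there were 6 false calls over all sizes. Whether these rates hold for the measured arrays was not tested. There the count called moved between 23 and 120 on leaving out single arrays. It was 5 with the Hoxa5 covariate and 507 with array weights. Alternatives were other labels, variance priors, weights, filters, scalings, covariates and subsets of arrays.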

Additional observations from a re-analysis of the deposited data

Results flagged for a closer look

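Of 528 sets of 5 arrays (a named gene in a group), 26 held an array far from the other 4, where chance flags about 1 in 20. Group names are reassigned labels.
In Q-tg at 0.85 mg/kg/d, replicate 3 stood apart for Entpd4 (9.67, others 9.35 to 9.41), Gabra2 (9.69), H2bc14 (9.94), Itih2 (7.75) and Kcna2 (6.75), and replicate 2 for Ces1c (4.28) and Lipt1 (6.82). In Q-tg at 0.75 mg/kg/d, replicate 4 stood apart for Ache (8.65), Dpp4 (6.47) and Lipt1 (7.09), replicate 3 for Kcna2 (6.99) and Rassf8 (8.08), and replicate 5 for H2bc4 (9.11). In Q-tg at dose 0, replicate 4 stood apart for Ccnb2 (9.47), Eomes (8.75) and Neurod2 (10.17), replicate 3 for Lrp1 (10.52) and replicate 1 for Mc5r (7.31, others 6.91 to 7.001).
In WT at 0.85 mg/kg/d, replicate 3 stood apart for Rbm11 (8.05, others 7.26 to 7.38) and replicate 4 for Cds2 (10.77) and Cp (7.56). In WT at 0.75 mg/kg/d, replicate 2 stood apart for Hoxb5 (6.80) and Prl5a1 (4.89). In WT at dose 0, replicate 2 stood apart for Cdh5 (9.23) and Rassf8 (8.25) and replicate 5 for Ache (8.76).

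Transcript clusters that the main comparison leaves out also held calls. Among those with no or several gene symbols, 30 passed over doses when all 28858 were tested (limma). Of these, 15 carried several symbols (3 higher, 12 lower) and 15 carried none (5 higher, 10 lower). Their log2 differences ran from -0.65 to 0.34. The counts repeat a few sets of symbols. Most of the 12 lower clusters share a set that holds Gm21158, Gm3893, Gm7819 and Gm10590, with differences of -0.55 to -0.65. These are the largest differences among the 30. The called clusters of the main comparison reached 0.53 in size. Gm15446 with Zfp932 also recurs among the 12, and the Dynlt1 genes recur among the 3 higher.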

How the results depend on the processing

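The number called over doses depended on the setting. In place of 46 (16 higher, 30 lower) it was 0 (0 and 0) with the deposited labels, 100 (51 and 49) with all 60 arrays in the model, 105 (48 and 57) with a robust trended prior, 507 (203 and 304) with array weights, 103 (43 and 60) without dim clusters, 79 (27 and 52) with all clusters, 154 (56 and 98) after median centring, 199 (82 and 117) after renewed quantile normalization and 1 (0 and 1) in exposed arrays. Added after seeing the data, the lower quartile of each array as covariate gave 241 (148 and 93), the Hoxa5 covariate 5 (2 and 3), arrays of changed genotype 1 (0 and 1) and arrays of unchanged genotype 0 (0 and 0). The last were fitted first with dose as a term, which gave 1 (0 and 1), Dcpp3, none of the 46, and rests on 3 Q-tg arrays and 1 WT array at 0.75 mg/kg/d. There the list medians were -0.05 for cell cycle (6 of 23 higher), 0.01 for synapse (14 of 25 higher), -0.02 for cortical (7 of 16 higher) and -0.0042 for histone genes (12 of 27 higher). Adjusting for Xist and Eif2s3y gave 68 and averaged group means 42. Leaving out each array gave 23 to 120 (10 to 30 higher, 13 to 92 lower), with the count past 1.5 times without Q-tg replicate 3 at dose 0 (23), Q-tg replicates 3, 4 and 5 at 0.75 (23, 28 and 30), Q-tg replicates 3, 4 and 5 at 0.85 (120, 26 and 26), WT replicate 1 at 0.75 (27) and WT replicate 1 at 0.85 (26). All 30 such fits called Entpd4.

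At dose 0 the count of 1 became 0 with deposited labels, 3 with the robust prior, 6 with weights, 13 with all clusters, and 2 without dim clusters, after centring, after quantile normalization and with the lower quartile (1 to 3 without an array). At 0.75 mg/kg/d, 0 became 1 with all 60 arrays or with Xist and Eif2s3y (0 to 0 without an array). At 0.85 mg/kg/d, 0 became 8 after quantile normalization, 3 with weights, and 1 with all 60 arrays, without dim clusters, after centring and with the lower quartile (0 to 2 without an array). The replicate numbers did not pair the arrays, since 3 of 15 same-number correlations passed 0.1 (-0.448 to 0.361), and the replicate block gave 69 (23 higher, 46 lower).

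Signs turned with the deposited labels for Abca1 (0.0021), Acta2 (0.019), Agt (0.0012), Aldh8a1 (0.010), Apoe (0.0021), Ccnb2 (-0.00155), Cnn2 (-0.025), Dpp4 (0.012), Entpd4 at 0.75 (0.061), Eomes (-0.0042), H4c3 (-0.021), Kcnc1 (0.020), Mcm6 (-0.025), Nes (-0.013), Plk1 (-0.00682), Rrm2 (-0.018), Tle4 (-0.032) and Vwf (0.036), in exposed arrays for Pdk4 (0.0067), and in unchanged-genotype arrays for Dpp4 (0.000636) and Pon2 (0.0068). With the dose term, unchanged-genotype arrays turned Aqp4 (0.011), Ccnb2 (-0.00168), Eomes (-0.23), H2bc14 (-0.013), Pdk4 (0.084), Plk1 (-0.13), Pon2 (0.0079) and Tle4 (-0.000593). The causes were not tested.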
